A study of Homo sapiens with 6 samples.

Results

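The EGF receptor (ErbB) family and its ligands were followed in U373 human glioblastoma cells that carried an inducible syk construct. The members are 4 receptor genes (EGFR, ERBB2, ERBB3 and ERBB4) and 6 ligand genes (HBEGF, AREG, TGFA, BTC, EREG and NRG1), taken as all probe sets to which the platform annotation gives a single member symbol. That gave 21 of 12558 non-control probe sets, for 9 of the 10 genes, among 8226 named genes in all. AREG had no such probe set and is not analysed here.

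The 6 samples are 1 array each on the Affymetrix Human Genome U95 Av2 chip. The syk-transfected cells were treated with ethanol and 10 µM ponasterone A (PonA, the steroid that switches on the ecdysone-inducible construct) at day 1 and at day 2, with ethanol alone at day 1, or left untreated at day 1 and at day 2. Untransfected, untreated U373 cells at day 1 complete the set. Conditions were not repeated, PonA was not given to untransfected cells, day 2 had no ethanol array, and the labels do not say whether the transfected cells are a clone or a pool or whether cultures were separate. Exposure to PonA is labelled as 6 to 48 hours for all samples together, with no time for each array. Stocks distributed as U373 have been found to derive from another glioblastoma line.

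The unit is MAS5 signal, a linear brightness per probe set that had been scaled to a common level before deposit. The 40th percentile of each array, 22.7 to 26.5 signal units, is called the floor. Lower signals were set to it before taking log2, so a fold from a floored value is a lower bound. With 1 array a condition the order of neighbouring values has no replicate spread, and levels were not compared between genes. Ratios of 3' to 5' GAPDH signal, a sign of RNA quality, were 1.01 and 1.04 with PonA, against 0.939 to 0.964 on the 4 other arrays. Those of beta-actin were 1.20 and 1.21 at day 2, against 0.960 to 0.987 at day 1. The geometric mean of the spike-in controls was 271 to 501 on the transfected arrays, lowest on the ethanol array, against 157 on the untransfected array. Of 3 SYK probe sets, 548_s_at gave 39.1 and 72.5 with PonA against 14.4 to 22.2, all under the floor, on the other transfected arrays. Probe set 1630_s_at gave 56.3 and 35.2 against 22.0 to 73.1, and the third lay under the floor throughout. In untransfected cells 548_s_at gave 1.74 and 1630_s_at 31.0. Neither passed the limma test for PonA described below, with log2 effects of 1.04 and 0.10 and adjusted p of 0.0803 and 0.877. Among 8 glioma and astroglial markers, vimentin (VIM, 4919 to 6458) and CD44 (1326 to 2129) were bright on all 6 arrays and AQP4 lay under the floor. None of the 5 epithelial markers could be tested, 4 of them lying under the floor throughout. Of 5 blood cell markers PTPRC and CD14 lay under the floor, CD3E (58.7 to 83.2) lay above it on all 6 arrays and LCP1 on 4. Of 4 oligodendrocyte markers MAG (132 to 243) and MOG (33.6 to 52.7) lay above it on all 6 arrays and MBP under it.

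ErbB receptors are membrane tyrosine kinases that pair with each other when a ligand binds. HBEGF, TGFA, BTC, EREG and AREG encode ligands of EGFR (HBEGF, BTC and EREG also bind ERBB4), NRG1 encodes a ligand of ERBB3 and ERBB4, and ERBB2 has no known ligand of its own but pairs with the others. The ligands are made as membrane-anchored precursors that ADAM proteases cut free. Signalling runs mainly through the RAS to ERK and PI3 kinase routes, and EGFR is often amplified in glioblastoma.

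Of 10 tested member probe sets 2 passed the test for PonA, where 2.70% of all tested probe sets were called higher and 2.37% lower. They belong to the ligand genes HBEGF and TGFA, and both rose. HBEGF signal was 165 and 271 with PonA, against 32.9 to 45.9 without it. TGFA signal was 655 and 578 with PonA, against 237 to 372.7 in transfected cells without it, highest with ethanol. The TGFA call was lost in several alternative settings given below, among them ethanol as its own term. The receptors and NRG1 did not pass. In RNA from whole cultures, more cells expressing a gene and more RNA per cell cannot be told apart. The upstream sequences of these 2 genes are shown because both rose. Each covers the 250 bases before the annotated start, 5′ to 3′ on the minus strand of GRCh38.p14, from RefSeq, and capitals mark every match to a motif searched. The HBEGF stretch lies at chr5:140346604-140346853 and the TGFA stretch at chr2:70553827-70554076, before the outer of 2 TGFA starts in the table.

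HBEGF: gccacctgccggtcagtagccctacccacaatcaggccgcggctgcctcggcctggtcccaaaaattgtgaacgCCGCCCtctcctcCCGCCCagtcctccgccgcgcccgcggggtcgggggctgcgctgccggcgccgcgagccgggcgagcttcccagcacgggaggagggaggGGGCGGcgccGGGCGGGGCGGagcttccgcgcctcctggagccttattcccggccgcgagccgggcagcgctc
TGFA: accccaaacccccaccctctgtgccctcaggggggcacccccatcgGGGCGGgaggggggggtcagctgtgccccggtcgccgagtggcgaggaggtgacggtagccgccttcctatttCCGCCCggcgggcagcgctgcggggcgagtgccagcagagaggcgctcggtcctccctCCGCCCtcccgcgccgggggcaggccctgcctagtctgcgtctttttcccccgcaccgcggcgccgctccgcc

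On both strands, matches overlapping where they occur, 6 motifs were searched: the AP-1 site TGANTCA, the GC box GGGCGG, the EGR site GCGNGGGCG, the ETS site GGAAGT, the TATA box TATAAA and the CArG box of serum response factor. All capitals belong to the GC box, with 5 matches upstream of HBEGF and 3 upstream of TGFA. The last 2 HBEGF matches, which begin 63 and 58 bases before the start, share a base. A GC box was present in 42.6% of the 35116 stretches of this length in the RefSeq table. AP-1, EGR, ETS, TATA and CArG letters were not in either window, and they were in 6.57%, 8.41%, 19.5%, 10.7% and 1.16% of all stretches. The HBEGF stretch was 76.4% and the TGFA stretch 75.6% G or C, against a median of 58% over all stretches.

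Of the 21 member probe sets, 8 lay above the floor on all 6 arrays, 10 lay under it on every array, and 3 were in between. The 10 under the floor were the single BTC and EREG probe sets, both ERBB4 probe sets, 5 of 7 ERBB3 probe sets and 1 of 3 NRG1 probe sets, and their highest signal was 19.1. The sixth ERBB3 probe set, 1723_g_at, passed the floor only in untreated cells at day 2, at 28.6. So for ERBB4, BTC and EREG only an upper bound near the floor is known in every condition. The other 10 probe sets, which stand for 6 genes, passed the filter of 2 transfected arrays above the floor and were tested. Of these, EGFR 37327_at and NRG1 1148_s_at were not above the floor everywhere.

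**Figure D1:**
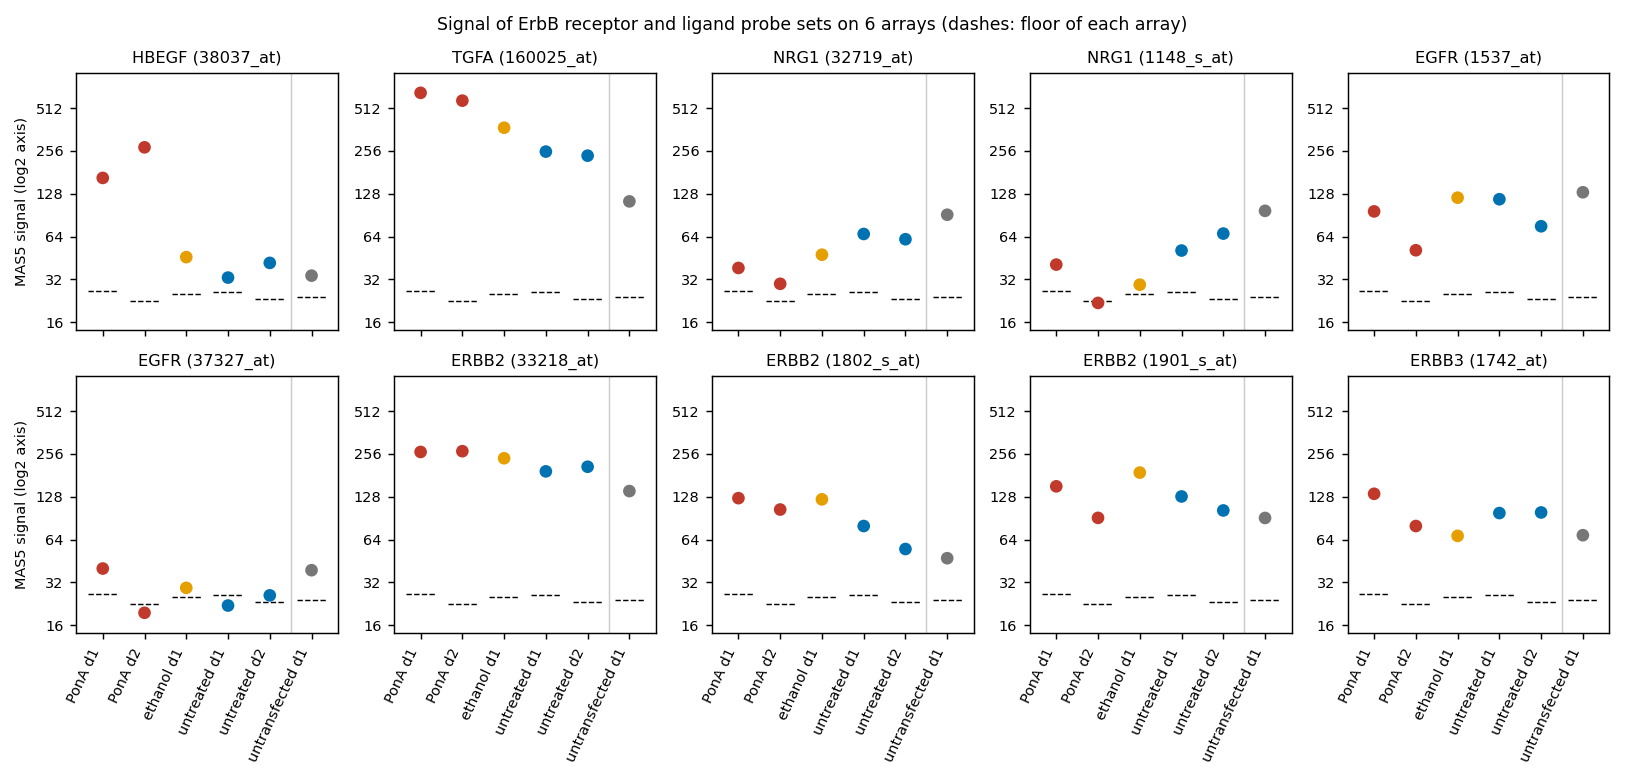
MAS5 signal on a log2 axis for the 10 tested member probe sets on the 6 arrays, with 1 point per array and dashes at the floor of that array (d1 and d2 are day 1 and day 2; all arrays but the last are syk-transfected). The 2 PonA points lie above all others for HBEGF and TGFA, and the untransfected point is the lowest for TGFA and the highest for both NRG1 probe sets.

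The PonA effect asks how transfected cells treated with PonA differ from transfected cells without it over both days. It was estimated with an additive limma fit (terms for PonA and day) on the 2 PonA arrays and the 3 transfected arrays without PonA. The PonA arrays also had ethanol and the untreated arrays did not, so the effect holds part of any ethanol difference. The fit leaves 2 residual degrees of freedom, which hold the ethanol difference at day 1 and the difference of the PonA effects between days. Since no culture was repeated, its p-values set an effect beside those differences and a spread pooled over all tested probe sets. The pooled spread had the larger weight, with 4.48 prior degrees of freedom. Of 7934 probe sets tested, 402 or 5.07% passed an adjusted p of 0.05, 2.70% higher and 2.37% lower with PonA. Of the 10 tested member probe sets 2 rose and none fell, the median log2 effect was 0.25, and the median over all tested was 0.0054.

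HBEGF encodes heparin-binding EGF-like growth factor, which is also the cell-surface receptor for diphtheria toxin. Its probe set gave 165 at day 1 and 271 at day 2 with PonA, against 45.9 with ethanol, 32.9 untreated at day 1, 41.8 untreated at day 2 and 34.0 in untransfected cells. Both PonA arrays lay above all 4 others, and the untransfected value fell among those of the transfected cells without PonA. The share of all probe sets with both PonA arrays above or below all others was not counted, here or for the genes below. The GAPDH ratio given above was also higher on both PonA arrays than on all others, and its part in the HBEGF and TGFA values was not tested. The log2 effect was 2.35 ± 0.24 (SE), or 5.10-fold (adjusted p = 0.00490, limma), which was rank 19 of 7934 by size among upward effects. Giving ethanol its own term left an effect of 1.94 ± 0.28 (SE). Taken singly, the ratio of PonA to ethanol was 3.60-fold at day 1, and that of PonA to untreated 5.02-fold at day 1 and 6.49-fold at day 2. Leaving out each array in turn kept the effect between 2.09 and 2.70, with adjusted p of 0.000193 to 0.0248, and the call was lost only with no filter on low signals (adjusted p = 0.0640).

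TGFA encodes transforming growth factor alpha, a ligand of EGFR. Signal was 655 at day 1 and 578 at day 2 with PonA, against 372.7 with ethanol, 253 untreated at day 1, 237 untreated at day 2 and 113 in untransfected cells. The PonA arrays did not overlap the others, the ethanol array lay between them and the untreated arrays, and the untransfected array was lowest. As for HBEGF, the share of all probe sets with such a separation was not counted. The log2 PonA effect was 1.18 ± 0.22 (SE), or 2.26-fold (adjusted p = 0.0353, limma). At day 1 the ratio of PonA to ethanol was 1.76-fold and that of PonA to untreated 2.59-fold, while ethanol itself was 1.47-fold above untreated. At day 2 PonA was 2.44-fold above untreated. With ethanol as its own term the effect was 0.79 ± 0.27 (SE, adjusted p = 0.209). The call was also lost without the PonA array of day 1 (1.29, adjusted p = 0.157), that of day 2 (1.09, adjusted p = 0.197) or the untreated array of day 2 (1.09, adjusted p = 0.179), with the floor at the 25th percentile (adjusted p = 0.0992) and with no filter on low signals (adjusted p = 0.118).

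NRG1 encodes neuregulin 1. Probe set 32719_at gave 38.5 and 29.8 with PonA, against 47.7 with ethanol, 66.7 and 61.3 untreated at day 1 and day 2, and 91.1 in untransfected cells. The PonA values lay below all others. The log2 effect was -0.76 ± 0.23 (SE), with an adjusted p of 0.123 in limma. Without the ethanol array it was -0.92 with an adjusted p of 0.0251. When ethanol had its own term it was -0.37 ± 0.27 (SE) and did not pass. Probe set 1148_s_at gave 40.7 and 21.9 (under the floor) with PonA, against 29.4 with ethanol, 51.1 and 67.2 untreated, and 97.1 in untransfected cells. Here the PonA value of day 1 exceeded the ethanol value, so the groups overlapped, and the effect was -0.63 ± 0.41 (SE, adjusted p = 0.475). The 2 probe sets had in common that the untransfected array was highest and the PonA array of day 2 lowest.

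EGFR was read by 2 probe sets designed on the same transcript accession. The brighter one, 1537_at, gave 96.2 and 51.3 with PonA at day 1 and day 2, against 120 with ethanol, 117 and 75.6 untreated, and 131 in untransfected cells. Within each day the PonA value was the lower, while the PonA value of day 1 exceeded the untreated value of day 2. On the log2 scale PonA had an effect of -0.41 ± 0.17 (SE, adjusted p = 0.251, limma). The second, 37327_at, lay near the floor at 40.04 and 19.6 with PonA, against 29.3, 22.0 and 25.9 on the other transfected arrays and 39.0 in untransfected cells. Its effect was 0.22 ± 0.22 (SE, adjusted p = 0.650), opposite in sign to the first.

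ERBB2 was above the floor on all arrays with all 3 of its probe sets. The brightest, 33218_at, gave 264 and 267 with PonA, against 239 with ethanol, 193 and 208 untreated, and 140 in untransfected cells. Probe set 1802_s_at gave 125 and 104 with PonA, against 123 with ethanol, 79.6 and 54.9 untreated, and 47.3 in untransfected cells. The third, 1901_s_at, gave 151 and 90.9 with PonA, against 189 with ethanol, 129 and 103 untreated, and 90.8 in untransfected cells. Only for 33218_at were both PonA values above every other. The log2 PonA effects were 0.33 ± 0.18, 0.59 ± 0.25 and -0.10 ± 0.22 (SE), with adjusted p of 0.394, 0.273 and 0.861, so the probe sets differ in sign and none passed. Without the ethanol array 1802_s_at passed, at 0.79 with an adjusted p of 0.0469. Once ethanol had its own term, the effects were 0.12 ± 0.27, 0.10 ± 0.27 and -0.42 ± 0.28 (SE) in the same order, and none passed.

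ERBB3, a receptor with a weak kinase that signals through its partners, rests on probe set 1742_at. It gave 134 and 79.7 with PonA, against 67.9 with ethanol, 98.3 and 99.2 untreated, and 68.7 in untransfected cells. The groups overlapped, and the log2 PonA effect was 0.27 ± 0.29 (SE, adjusted p = 0.678, limma). Probe set 1723_g_at, which carries the same transcript accession, gave at most 28.6, and the remaining ERBB3 probe sets lay under the floor on every array.

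**Figure D2:**
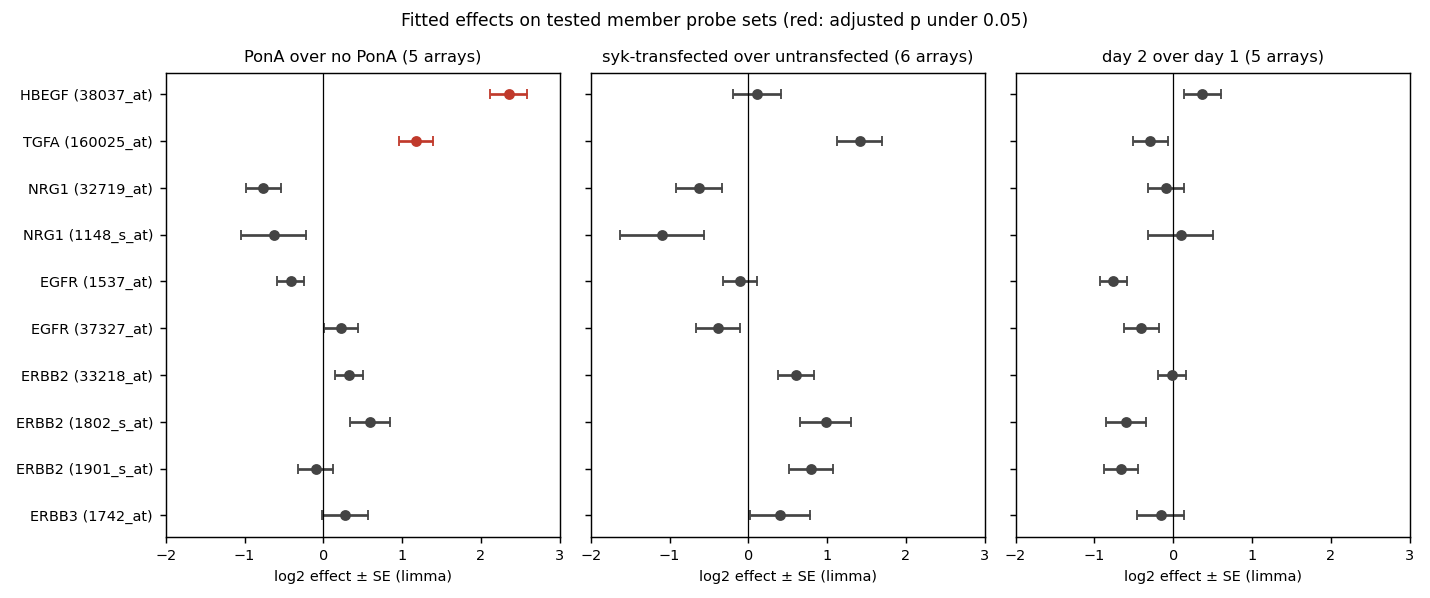
Log2 effects of PonA, transfection and day ± SE from limma for the 10 tested member probe sets, with effects whose adjusted p is under 0.05 in red. Only the PonA effects of HBEGF (2.35) and TGFA (1.18) are red.

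A PonA-by-day interaction, fitted to those 5 arrays with 1 residual degree of freedom left, asked whether the response to PonA was alike on both days. The share called was 0% of 7934 probe sets, an unadjusted p under 0.05 was reached by 330, and none was called when the variance prior followed a trend. The term was 0.61 ± 0.46 for HBEGF and 0.19 ± 0.48 for TGFA (SE). The smallest unadjusted p among members was 0.0220, for NRG1 1148_s_at, with a term of -1.63 ± 0.56 (SE, adjusted p = 1.00). That probe set lay under the floor with PonA at day 2, where the floor stood in for its signal.

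Single arrays were also set against each other, with no test, by counting probe sets at least 2-fold apart with 1 side above the floor. PonA over ethanol at day 1 exceeded 2-fold for 1 of 10 measured member probe sets, HBEGF, where the share over all probe sets was 5.62%. PonA over untreated cells at day 1 did so for 2 of 10, HBEGF and TGFA (6.71% overall). At day 2 the same comparison gave 4 of 11 (8.71% overall): HBEGF and TGFA were higher, and NRG1 32719_at was 2.06-fold and 1148_s_at at least 2.96-fold lower. The day 1 comparisons share the PonA array. ERBB3 1742_at fell just short over ethanol, at 1.98-fold.

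Ethanol, the solvent of PonA, was set against no treatment at day 1. No member probe set reached 2-fold, against 2.18% of all probe sets. The widest differences were -0.80 on the log2 scale for NRG1 1148_s_at, at 29.4 with ethanol against 51.1 untreated, and 0.62 for ERBB2 1802_s_at, at 123 against 79.6. All 3 ERBB2 probe sets, TGFA and HBEGF were higher with ethanol, by 1.24-fold to 1.54-fold, and both NRG1 probe sets and ERBB3 1742_at were lower. The spike-in mean differed in the same comparison, at 271 with ethanol against 474 untreated, and its part in these values was not tested.

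**Figure D3:**
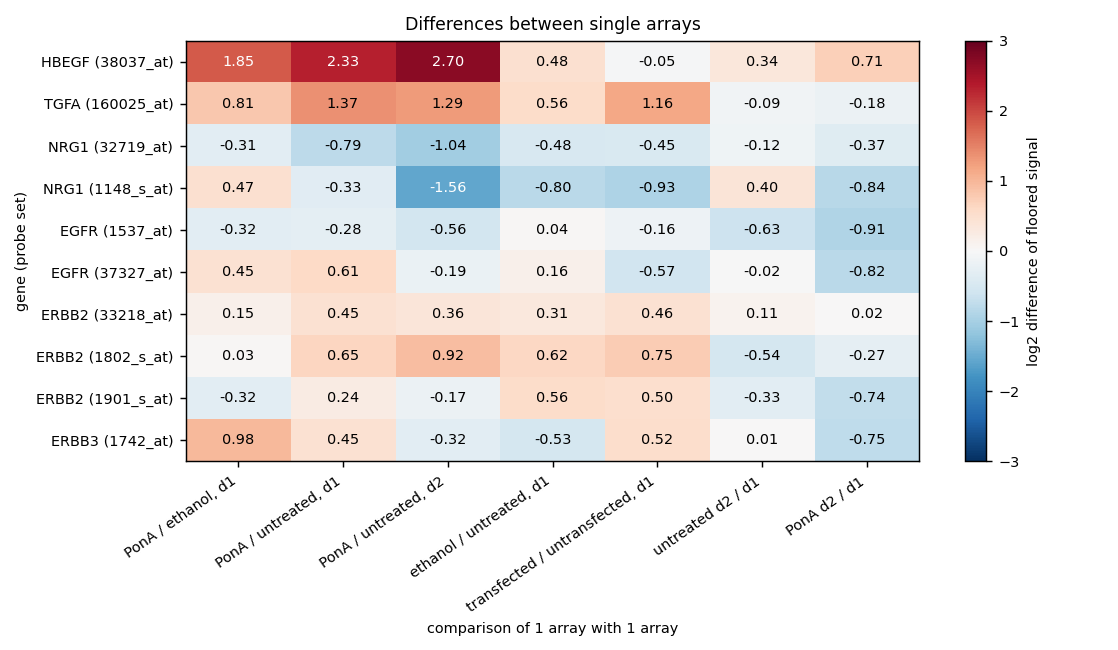
Log2 differences of floored signal between single arrays for the 10 tested member probe sets (rows) in 7 comparisons (columns), each of 1 array with 1 array, red for higher and blue for lower in the array named first. HBEGF lies between 1.85 and 2.70 in the 3 PonA comparisons and at -0.05 in transfected against untransfected cells, where TGFA lies at 1.16.

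Transfected and untransfected cells were compared in a limma fit of transfection, PonA and day over all 6 arrays, in which the lone untransfected array is assumed to vary like the others and has no spread of its own. The fit has no ethanol term, so the transfection effect holds part of any ethanol difference. Of 8090 probe sets 21 or 0.260% passed, and no member did. An unadjusted p under 0.05 was reached by 4 of the 10 member probe sets, against 14.9% of all tested: TGFA and the 3 of ERBB2. TGFA had a log2 effect of 1.41 ± 0.28 (SE), or 2.66-fold, with an unadjusted p of 0.00210 and an adjusted p of 0.112. It passed when the variance prior followed a trend (adjusted p = 0.0375) and without the untreated array of day 1 (1.60, adjusted p = 0.0486). The ERBB2 effects were 0.60 ± 0.23, 0.98 ± 0.33 and 0.80 ± 0.28 (SE) for 33218_at, 1802_s_at and 1901_s_at, with adjusted p of 0.253 to 0.297. Transfected cells gave higher ERBB2 signal than untransfected cells on each of the 5 arrays with all 3 probe sets, by as little as 90.9 against 90.8 for 1901_s_at with PonA at day 2. These probe sets read the same gene, and the share of all probe sets with the untransfected array lowest was not counted. Without the ethanol array the ERBB2 effects were 0.48, 0.68 and 0.60 in the same order.

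NRG1 went the other way, with effects of -0.62 ± 0.29 and -1.09 ± 0.53 (SE, adjusted p of 0.387 and 0.410), and the untransfected array was highest for both of its tested probe sets. HBEGF had an effect of 0.11 ± 0.30 (SE, adjusted p = 0.898). Without the ethanol array the NRG1 effects were -0.39 and -0.62, and that of HBEGF was -0.14. The direct comparison of untreated arrays at day 1 exceeded 2-fold for 1 of 10 measured member probe sets, TGFA at 253 against 113 (5.72% overall). GFAP, the astroglial filament gene, gave 103 to 229 on the transfected arrays against 1533 on the untransfected array (log2 -3.71, adjusted p = 0.0222). It was the 1 called of 6 tested markers of that list. The summed signal of the list, in which VIM was the brightest gene, was 9098 to 10142 on the transfected arrays against 10988, with AQP4 under the floor. The spike-in mean also differed, at 271 to 501 against 157, and the part of either in the TGFA and ERBB2 values was not tested.

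Day 2 was set against day 1 within the additive fit. No probe set passed (0% of 7934), with 1048 at an unadjusted p under 0.05 and 2 called with a trended variance prior. EGFR 1537_at had the smallest p among members, with a log2 effect of -0.76 ± 0.17 (SE, unadjusted p = 0.00354, adjusted p = 0.239). It gave 51.3 at day 2 against 96.2 at day 1 with PonA, and 75.6 at day 2 against 117 at day 1 untreated. ERBB2 1901_s_at had an effect of -0.66 ± 0.22 (SE, adjusted p = 0.323), while 33218_at had one of -0.02 ± 0.18. No member probe set differed 2-fold between the days in untreated cells (3.19% overall) or with PonA (2.93% overall). The 3' to 5' ratio of beta-actin was also higher at day 2, at 1.20 and 1.21 against 0.960 to 0.987, and its part in the EGFR value was not tested.

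Genes with the most similar course over the 6 arrays were sought among 5568 other genes for the 4 members whose brightest probe set spanned at least 2-fold, by the root mean square distance of centred log2 signals. Nearest to HBEGF were ITGA7, an integrin subunit (0.16), SLC5A3, a myo-inositol transporter (0.17), and SRPX2 (0.25). ITGA7 gave 1156 and 1397 with PonA, against 186 to 286 on the other transfected arrays. Nearest to TGFA were PPP1R3C, a glycogen-targeting subunit of protein phosphatase (0.16), MTSS1 (0.20) and TENM4, a teneurin (0.22). PPP1R3C gave 513 and 528 with PonA, 281 with ethanol, 196 and 180 untreated and 115 in untransfected cells, so that ethanol, untreated and untransfected cells followed in the same order as for TGFA. NRG1 lay nearest to RFC2, a clamp loader subunit of DNA replication (0.11), CD2BP2 (0.11) and the splicing factor gene SRSF3 (0.13). EGFR lay nearest to NHERF2, a membrane scaffold (0.070), CCDC106 (0.073) and the transcription factor gene MAZ (0.096). These likenesses describe 6 arrays, and a second SLC5A3 probe set had a PonA effect of 0.68 against 2.54 for the one listed.

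**Figure D4:**
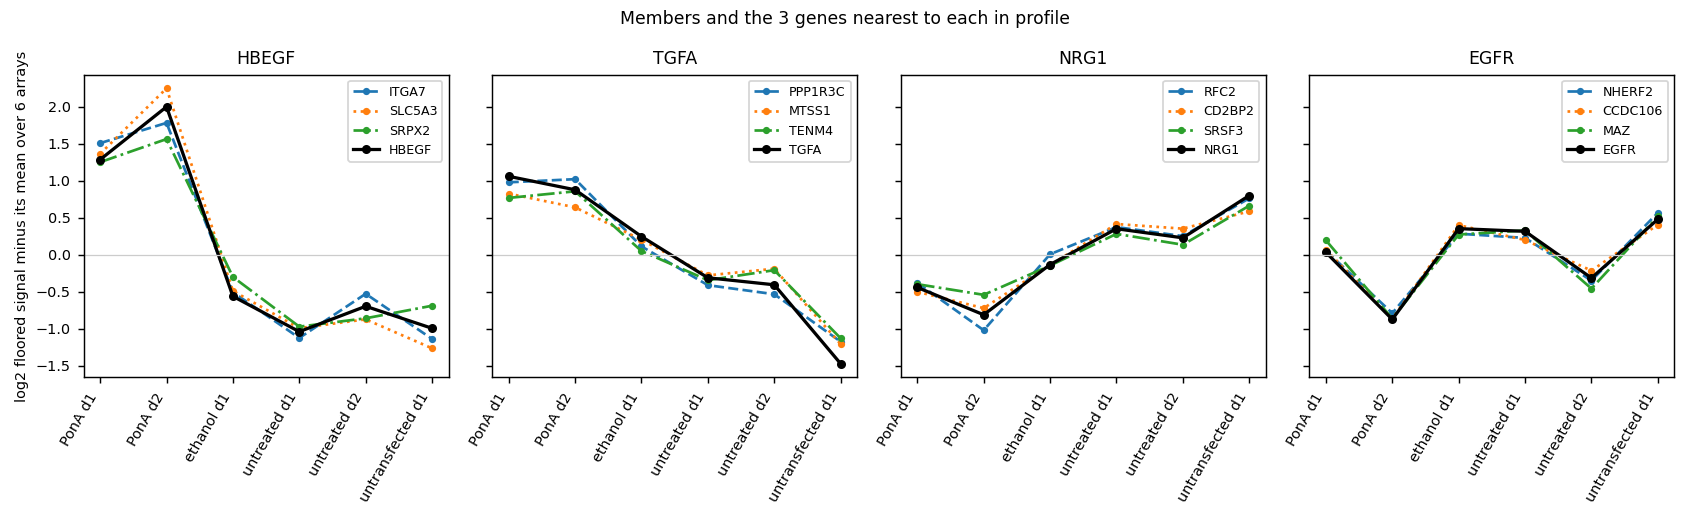
Log2 floored signal minus its mean over the 6 arrays for HBEGF, TGFA, NRG1 and EGFR (black) and the 3 genes nearest to each (coloured). HBEGF and its neighbours are highest on the 2 PonA arrays, and TGFA and its neighbours are highest on the PonA arrays, next with ethanol and lowest in untransfected cells.

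The surrounding pathway was read through 4 lists, with the brightest probe set standing for a gene. Their counts stand beside the 2.70% of all probe sets called higher and the 2.37% called lower with PonA. These shares do not test the lists, since members and lists were chosen with earlier results of these data known. The brightest probe set was also picked over all arrays, the PonA arrays included. Of the other ligands, 2 of 5 had a probe set and neither passed. NRG2, a neuregulin, had a PonA effect of 0.40 ± 0.30 and EGF itself one of -0.09 ± 0.20 (SE).

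Of 9 tested genes of ligand shedding and presentation 1 rose, none fell, and the median log2 effect was 0.24. The metalloprotease gene ADAM19 gave 815 and 752 with PonA, against 372 with ethanol, 326 and 409 untreated, and 644 in untransfected cells. Its effect was 1.08 ± 0.18 (SE, adjusted p = 0.0260), a call lost without either PonA array or the untreated array of day 2 (adjusted p of 0.0792 to 0.242), with ethanol as its own term (adjusted p = 0.133), with the floor at the 25th percentile (0.0787) or with no filter (0.0716). The count of 1 was 0 to 2 over the alternatives and differed from 1 in 10 of 14. ADAM12 had the widest effect, 1.48 ± 0.36 (SE, adjusted p = 0.0750), but -0.02 on its second probe set. ADAM15 (-0.20 ± 0.18) and RHBDF1, an inactive rhomboid that helps deliver sheddases (-0.03 ± 0.19), were at the low end.

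Among 22 tested receptor adaptors and relay genes 1 fell, none rose, and the median was 0.02. GRB7, an adaptor that binds ERBB2, gave 30.8 and 16.2 (under the floor) with PonA, against 74.5 with ethanol, 70.1 and 57.1 untreated, and 88.2 in untransfected cells. Its log2 effect was -1.27 ± 0.17 (SE, adjusted p = 0.0109), with no overlap between the groups. The call was lost without either PonA array or the untreated array of day 2 (adjusted p of 0.0749 to 0.0852), and at a floor of the 50th percentile the effect was -0.60 (adjusted p = 0.0662). SOS1 and SOS2, which load RAS with GTP, had the highest effects at 0.98 ± 0.24 and 0.48 ± 0.17 (SE, adjusted p of 0.0731 and 0.194). PIK3CB, a PI3 kinase subunit, had -0.46 ± 0.28 (SE, adjusted p = 0.435).

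Of 14 tested genes of receptor down-regulation and feedback 3 rose, none fell, and the median was 0.34. They were SPRY2 (2.86 ± 0.27), SPRY1 (1.56 ± 0.24) and DUSP6 (2.39 ± 0.36, SE), all inhibitors in the RAS to ERK route, with adjusted p of 0.00441, 0.0207 and 0.0191. SPRY2 gave 202 and 316 with PonA, against 42.7 with ethanol, 27.1 and 33.3 untreated, and 50.1 in untransfected cells. DUSP6 gave 264 and 229 with PonA, against 90.8 with ethanol, 40.5 and 33.8 untreated, and 48.2 in untransfected cells. The ethanol array was the highest of the arrays without PonA for DUSP6. SPRY1 gave 73.3 and 98.8 with PonA, against 31.2 with ethanol, 34.1 and 23.5 untreated, and 44.8 in untransfected cells. The count of 3 was 1, SPRY2, when either the PonA or the untreated array of day 2 was left out, 5 when the ethanol array was, and 0 with no filter on low signals. With ethanol as its own term the DUSP6 effect was 1.55 and that of SPRY1 1.47 (adjusted p = 0.0783), and with the floor at the 50th percentile that of SPRY1 was 0.98. With the floor at the 25th percentile DUSP6 and SPRY1 had adjusted p of 0.0678 and 0.0683. HGS and PTPRK, an endosomal sorting protein and a receptor phosphatase, had -0.12 ± 0.16 and -0.05 ± 0.17 (SE). Beside these PonA effects, 1 of 6 tested astroglial markers rose (SLC1A3, a glutamate transporter, 2.88 ± 0.26) and 1 of 5 tested neuronal markers fell (GAP43, a growth cone protein, -1.83 ± 0.20). The summed signal of the neuronal list, in which ENO2 gave 832 and 730 with PonA, was 1064 and 940, against 940 to 1158 on the other transfected arrays. The astroglial sum, in which VIM gave 6239 and 4919 with PonA, was 9974 and 9196, against 9098 to 10142. Both sums follow their brightest genes and can hide changes in weaker ones. The part of these markers in the pathway values was not tested.

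**Figure D5:**
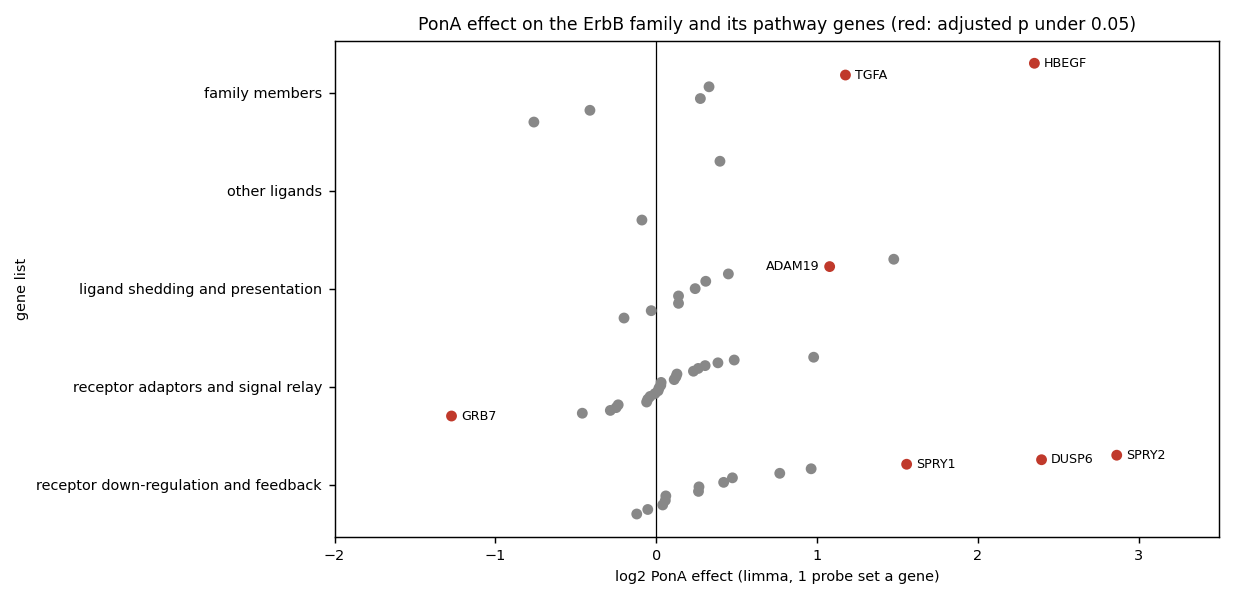
Log2 PonA effects from limma for 1 probe set per gene in the ErbB family and the 4 pathway lists, red and named where the adjusted p is under 0.05. Red points to the right are HBEGF, TGFA, ADAM19, SPRY1, DUSP6 and SPRY2, and the only red point to the left is GRB7 at -1.27.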

How the data were processed

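RNA of 6 samples was measured on 6 arrays. The deposited values are MAS5 signal, which the authors computed per the submitters' processing notes, and its version, detection calls and a genome build are not given in the sources used here. Per array, the mean without the lowest and highest 2% of probe sets was 150.07 to 150.08. Symbols came from the platform annotation, updated by Entrez identifier through a RefSeq table of GRCh38.p14: 10943 probe sets had 1 symbol (10934 matched), 545 several and 1070 none, and 67 control probe sets were left out of all tests. Signals were floored at the 40th percentile and taken to log2. Those exceeding the floor on 2 or more fitted arrays were tested with lmFit and eBayes (limma 3.58.1, R 4.3.3), Benjamini-Hochberg adjustment over all tested and a threshold of 0.05. eBayes added 4.48 prior degrees of freedom to 2. All tested members and, in each pathway list, called genes and the 2 highest and 2 lowest effects are named. Members and lists were chosen with earlier results of these data known. The number of arrays limits the precision. Alternatives changed the floor, a pseudocount of 16, the filter, quantile normalization, the variance prior, the terms and the arrays.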

Additional observations from a re-analysis of the deposited data

Results flagged for a closer look

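ERBB3 probe set 1742_at differed with PonA in opposite directions on the 2 days, higher at day 1 and lower at day 2. The other ERBB3 probe sets lay too low to be tested, so this rests on 1742_at alone. At day 1 its log2 difference was 0.98 over ethanol and 0.45 over untreated cells, while at day 2 it was -0.32 over untreated cells. The test of that difference, the PonA-by-day term of limma, gave -1.03 ± 0.47 (SE, adjusted p = 1.00).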

How the results depend on the processing

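No paired analysis was possible because each condition has 1 array and the replicate numbers pair none of them; day enters the PonA fit as a term. HBEGF kept its direction and call under the alternatives run except with no filter on low signals (adjusted p = 0.0640), and TGFA kept its direction under all of them but not its call. The 402 calls for PonA became 169 with the floor at the 25th percentile, 29 with no filter, 625 with a trended prior, 185 with ethanol as its own term, and 111 to 725 with 1 array left out. Member calls, 2 in the reported fit, were 1, 0, 2 and 1 in those 4 settings and 1 to 4 with 1 array left out. The 21 transfection calls became 4 and 37 with floors at the 25th and 50th percentiles, 46 with a pseudocount, 0 with no filter, 7 with quantile normalization, 115 with a trended prior and 24 to 99 with 1 array left out, and member calls were 1 with the trended prior and 0 to 1 with 1 array left out. Day calls were 2 with the higher floor or the trended prior and 0 to 16 with 1 array left out, and PonA-by-day calls were 86 with no filter. At 1.5-fold, member counts were 3 for PonA over ethanol, 5 for PonA over untreated at day 1, 2 for ethanol over untreated, 3 for transfected over untransfected, 1 for untreated day 2 over day 1 and 6 for PonA day 2 over day 1. With the floor at the 25th percentile the transfected over untransfected count was 3 and the last of these 1. Signs turned for members that had not passed. For PonA, NRG1 1148_s_at had 0.16 with ethanol as its own term and -1.56 to 0.071 with 1 array left out, ERBB3 1742_at -0.32 to 0.72, EGFR 37327_at -0.19 to 0.53 and ERBB2 1901_s_at -0.25 to 0.031. For transfection, HBEGF had -0.0090 with the higher floor and -0.14 to 0.22 with 1 array left out. For day, NRG1 32719_at had 0.0010 with the higher floor, 0.036 with quantile normalization and -0.37 to 0.12 with 1 array left out, ERBB3 1742_at -0.75 to 0.28, NRG1 1148_s_at -0.84 to 0.79 and ERBB2 33218_at -0.091 to 0.063. The cause was not tested. EGFR 37327_at and NRG1 1148_s_at had signals near the floor.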
